A study of Mus musculus with 9 samples.

Results

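The IL-6 family receptor and STAT3 genes described here are Il6ra, Il6st, Osmr, Lifr, Jak1, Jak2, Stat3, Socs1, Socs2 and Socs3, chosen by gene name from the table of raw gene counts. Of these 10 genes, 9 were among the 15384 protein-coding genes of the table, and counts of Lifr were not analysed here. They were measured by RNA-Seq in 9 libraries of 1 line, the androgen-responsive mouse prostate cancer cells MyC-CaP. After starvation in medium without serum and calcium, the cells received 100 ng/mL of recombinant ASPN of the mouse (asporin, a protein that stromal fibroblasts secrete). RNA was collected at 0, 12 and 24 hours, from 3 replicate wells each. The 0-hour libraries carry the ASPN label too, and they served here as the starting point, time 0. Cultures of 12 or 24 hours that lacked ASPN were not analysed here, so the treatment and the hours in culture cannot be told apart in any comparison with time 0.

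Cytokines of the IL-6 family, such as IL-6, LIF and oncostatin M, bind a receptor of their own and then share the signaling chain gp130, which Il6st encodes. The JAK kinases bound to this chain phosphorylate STAT3, which enters the nucleus and induces target genes. Among these targets is Socs3, whose protein binds gp130 and the JAKs and ends the signal, so that Socs3 mRNA is widely read as an early output of the pathway. In prostate cancer, IL-6 and STAT3 are known for their links to inflammation and to growth with little androgen.

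The 250 bases before RefSeq's annotated start of 3 of these genes are printed here, with the coding strand read 5′ to 3′. They were chosen because Il6st was the gene that rose at 12 hours, Socs1 the gene with the lowest log2 fold change at 24 hours, and Socs3 the classical STAT3 target. The sequences are RefSeq's, on GRCm38.p6. GENCODE's coding transcript of Socs3 starts downstream of RefSeq's start, so the bases directly before that second start lie outside the printed window. The annotated Socs3 gene also extends upstream of the window, to base 117970047, so the window lies inside the span of the gene. The window of Il6st is chr13:112463820-112464069 on the plus strand, that of Socs1 is chr16:10785537-10785786 on the minus strand and that of Socs3 is chr11:117969367-117969616 on the minus strand. Capitals mark a match to TTCNNNGAA, the palindromic core of a STAT site.
Il6st: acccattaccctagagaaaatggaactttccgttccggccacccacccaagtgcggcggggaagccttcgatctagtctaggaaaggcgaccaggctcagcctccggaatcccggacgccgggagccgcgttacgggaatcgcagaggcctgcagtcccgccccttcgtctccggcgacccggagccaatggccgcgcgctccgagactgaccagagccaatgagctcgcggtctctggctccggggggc
Socs1: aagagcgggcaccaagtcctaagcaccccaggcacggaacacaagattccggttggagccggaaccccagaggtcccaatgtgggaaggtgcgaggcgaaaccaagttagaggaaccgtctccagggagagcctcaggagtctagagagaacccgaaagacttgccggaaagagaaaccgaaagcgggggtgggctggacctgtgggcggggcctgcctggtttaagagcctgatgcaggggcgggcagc
Socs3: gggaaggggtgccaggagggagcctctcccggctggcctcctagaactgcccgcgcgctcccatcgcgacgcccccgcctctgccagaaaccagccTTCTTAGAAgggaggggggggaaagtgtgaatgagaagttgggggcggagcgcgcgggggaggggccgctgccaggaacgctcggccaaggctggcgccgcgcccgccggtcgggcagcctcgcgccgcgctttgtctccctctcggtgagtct
Of the 9 listed genes with such a window, Lifr among them, Socs3 alone held TTCNNNGAA, searched on both strands. It was TTCTTAGAA, beginning 154 bases before RefSeq's start. Of all 32851 windows of this length in the RefSeq table, 7.02% held it. A 10-letter NF-kB motif was found in 0 of the 9 genes and in 7.25% of all windows. Socs2 had no window in the table. A match describes the letters and not a bound site.

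The counts on all genes totaled 41881191 to 52993821 per library. The floor of 3 counts equaled 0.0566 to 0.0716 CPM, which is the count relative to the library total. A gene was called when its adjusted p (Benjamini-Hochberg, over all tested genes) was at most 0.05 in edgeR's quasi-likelihood test and its level differed by 1.5-fold or more. Of all tested genes, 1.6% were called at 12 hours relative to time 0, 28.8% at 24 hours relative to time 0 and 25.7% between 12 and 24 hours. Of 4 keratin and adhesion markers of epithelium, Krt8 (24.8 to 42.3 CPM) was detected, whereas Epcam, Cdh1 and Krt18 were below 1 CPM in every library; these 3 genes go against the epithelial label. The summed level of the leukocyte markers was 0.27 to 0.793 CPM and that of the endothelial markers 0.0207 to 0.124 CPM. The fibroblast markers summed to 12.2 to 14.1 CPM at the first 2 times and 9.12 to 10.3 CPM at 24 hours, nearly all of it Pdgfra. CPM values are scaled with TMM factors over the 9 libraries. In bulk libraries, fewer cells of a kind and less RNA per cell cannot be told apart.

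The receptor chains changed at different times. Il6st, the shared gp130 chain, rose at 12 hours and was back near its time 0 level at 24 hours, whereas Il6ra, the chain that binds IL-6, fell between 12 and 24 hours. Osmr, the oncostatin M receptor, was almost absent from the libraries. Il6st (ENSMUSG00000021756.12; chromosome 13, 112464070 to 112510086, plus strand, GRCm38) had 64.6, 58.7 and 61.2 CPM in the 3 libraries of time 0, 105, 111 and 96.1 CPM at 12 hours, and 58.3, 62.9 and 53.2 CPM at 24 hours. The 12-hour libraries lay above all of the others, and those of time 0 and 24 hours overlapped. The rise at 12 hours was 1.69-fold, or 0.76 on the log2 scale (SE 0.049, adjusted p = 1.1e-08). From 12 to 24 hours Il6st fell, with a log2 value of -0.82 (SE 0.063, adjusted p = 8.1e-08). Relative to time 0 the 24-hour value was -0.08 on the log2 scale (SE 0.061, adjusted p = 0.25), and it became 0.15 (adjusted p = 0.025) once the counts were corrected for the length and GC content of transcripts and -0.30 (adjusted p = 0.00072) with total counts in place of TMM scaling. The same correction left the change from 12 to 24 hours at -0.58 (adjusted p = 2.2e-07), just short of 1.5-fold.

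Il6ra (ENSMUSG00000027947.11; chromosome 3, 89864059 to 89913196, minus strand) had 67.4, 61.8 and 58.7 CPM at time 0, 56.4, 55.2 and 57.3 CPM at 12 hours, and 32.9, 33.4 and 28.9 CPM at 24 hours. Each time lay below the one before it without overlap, although the gap between time 0 and 12 hours was small. The log2 fold change was -0.15 at 12 hours (SE 0.047, adjusted p = 0.052), which was not called and whose adjusted p lay on either side of 0.05 over the other analyses (0.0048 to 0.14), and -0.98 at 24 hours (SE 0.067, adjusted p = 2.5e-08), or 1.97-fold lower. From 12 to 24 hours it was -0.81 (SE 0.057, adjusted p = 3.5e-08). The length and GC correction brought the 24-hour value to -0.63 relative to time 0, still called, and to -0.45 relative to 12 hours (adjusted p = 1.2e-06), short of 1.5-fold. Exons of Il6ra share 242 bases with an antisense gene, Gm42809, and whether the counting used strand is not stated.

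Scaled to exon length, Il6st mRNA relative to Il6ra mRNA was 0.746, 0.739 and 0.812 in the libraries of time 0. The ratio was 1.44, 1.57 and 1.31 at 12 hours and 1.38, 1.46 and 1.43 at 24 hours. It was therefore higher in all 6 libraries of the later times than in any of time 0, and the libraries of 12 and 24 hours overlapped. Per exon length, Il6st mRNA thus stood below Il6ra mRNA at time 0 and above it at both later times, first with Il6st higher and then with Il6ra lower. The order at time 0 depends on the annotated exon lengths, 11099 bases for Il6st and 8642 for Il6ra. In CPM without this scaling, the time 0 libraries of the 2 genes overlapped. Protein was not measured here. Osmr (ENSMUSG00000022146.12; chromosome 15, 6813577 to 6874969, minus strand) had 0 counts in every library of time 0 and 0 or 1 count in each of the others, below the floor of 3 counts, so no change can be given at this depth.

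**Figure D1:**
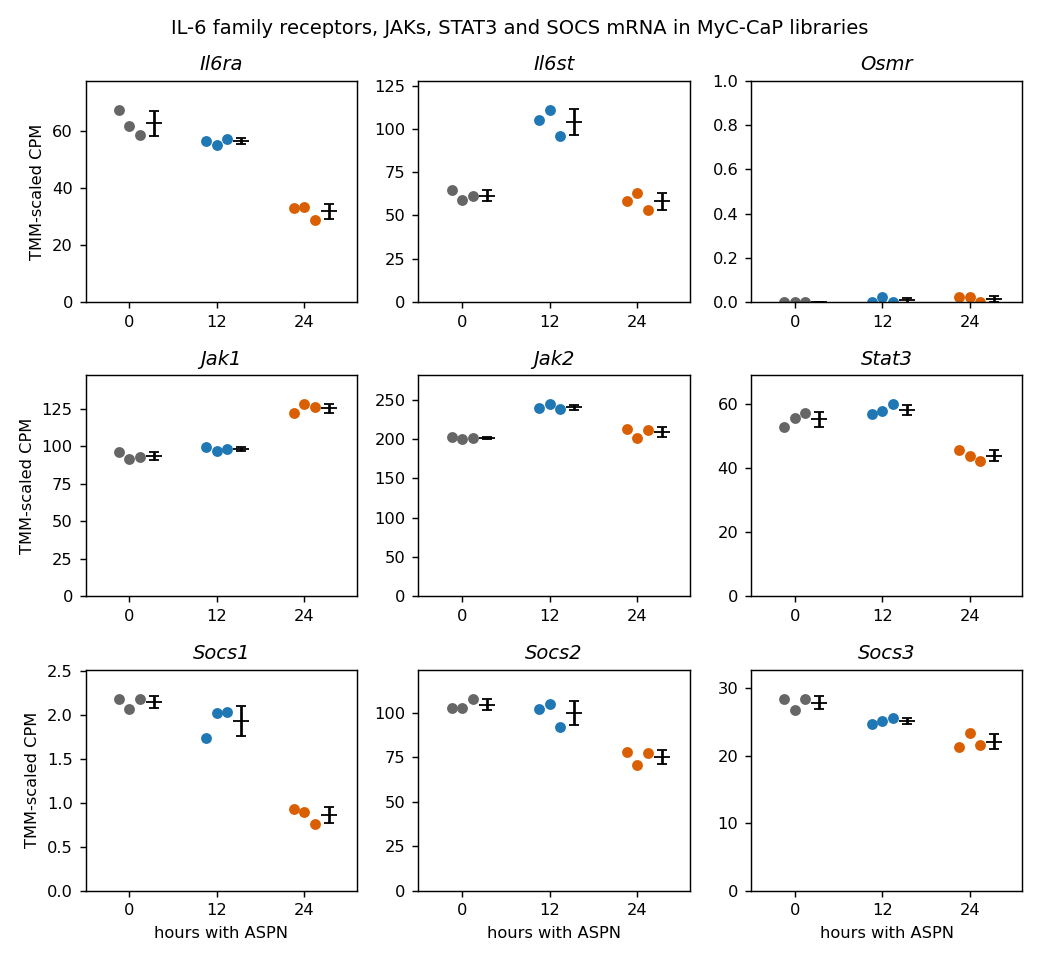
TMM-scaled CPM (vertical axes, from 0, a scale of its own for each gene) of the 9 measured genes against hours with ASPN, with 1 point per library and the mean ± SD of 3 libraries beside the points. Il6st stands above 96 CPM at 12 hours alone, Il6ra and Socs1 drop at 24 hours, and Osmr stays at 0.0245 CPM or less.

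The kinases and STAT3 moved less. Jak2, a kinase that gp130 and several other cytokine receptors use, had the highest level per length of the 9 genes. Jak2 (ENSMUSG00000024789.13; chromosome 19, 29251828 to 29313080, plus strand) had 203, 200 and 201 CPM at time 0, 239, 244 and 238 CPM at 12 hours and 213, 201 and 211 CPM at 24 hours. Its libraries of 12 hours lay above all others, by 0.26 over time 0 on the log2 scale (SE 0.030, adjusted p = 1.3e-05). This is 1.2-fold and was not called, and from 12 to 24 hours the value was -0.19 (SE 0.035, adjusted p = 0.00036). At 24 hours Jak2 differed from time 0 by 0.05 (SE 0.039, adjusted p = 0.26), and by -0.17 with total counts, which brought the median of all tested genes to -0.24, from -0.02.

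Jak1, the main kinase of gp130 signaling, was unlike Jak2 in time. Jak1 (ENSMUSG00000028530.14; chromosome 4, 101152367 to 101265282, minus strand) had 96.2, 91.7 and 92.7 CPM at time 0, 99.8, 96.9 and 97.9 CPM at 12 hours and 122, 128 and 126 CPM at 24 hours. The 24-hour libraries were the highest, without overlap, at a log2 difference of 0.42 from time 0 (SE 0.041, adjusted p = 8.5e-07) and 0.37 from 12 hours (SE 0.036, adjusted p = 8e-07). These changes were 1.34-fold and 1.29-fold, below the fold threshold, and with total counts they were 0.20 and 0.15. After the length and GC correction they were larger, at 0.54 (adjusted p = 1.2e-08) and 0.50 (adjusted p = 4.7e-09), still short of 1.5-fold.

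Stat3 (ENSMUSG00000004040.16; chromosome 11, 100885098 to 100939540, minus strand) had 52.7, 55.6 and 57.3 CPM at time 0, 56.9, 57.9 and 59.9 CPM at 12 hours and 45.7, 43.9 and 42.1 CPM at 24 hours. The first 2 times overlapped (log2 difference 0.08, SE 0.040, adjusted p = 0.26), and the 24-hour libraries lay below both. At 24 hours the log2 fold change was -0.33 relative to time 0 (SE 0.052, adjusted p = 6.7e-05), which was not called and whose sign depended on the processing: it was 0.08 after the length and GC correction (adjusted p = 0.18). The 3′ ends of Stat3 and of Stat5a, its neighbor on the opposite strand, share 72 exon bases, and Stat5a was called lower at 24 hours. The part of Stat5a reads in the Stat3 counts was not tested.

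Among the listed SOCS genes Socs1, Socs2 and Socs3, whose proteins inhibit cytokine receptor signaling, none rose. Cish, a further SOCS gene, is described below. Socs1, an inhibitor of the JAKs themselves, was low at time 0 and fell further by 24 hours, and neither Socs2 nor Socs3 was called in any of the 3 comparisons. Socs3 (ENSMUSG00000053113.3; chromosome 11, 117966079 to 117970047, minus strand) had 28.4, 26.7 and 28.4 CPM at time 0, 24.6, 25.1 and 25.5 CPM at 12 hours and 21.3, 23.3 and 21.6 CPM at 24 hours. Each time lay below the one before it. The log2 fold changes were -0.15 at 12 hours (SE 0.049, adjusted p = 0.068) and -0.34 at 24 hours (SE 0.061, adjusted p = 0.00024), of which the second was 1.26-fold lower and short of the fold threshold. So the highest Socs3 libraries were those of time 0. From 12 to 24 hours the log2 value was -0.17 (SE 0.057, adjusted p = 0.019). After the length and GC correction this value was -0.06 (adjusted p = 0.33), and that of 24 hours relative to time 0 was -0.21 (adjusted p = 0.0046).

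Socs1 (ENSMUSG00000038037.5; chromosome 16, 10782240 to 10785536, minus strand) had 105, 96 and 119 counts in the libraries of time 0, 79, 94 and 89 at 12 hours and 38, 43 and 36 at 24 hours. In CPM these were 2.18, 2.06 and 2.18, then 1.73, 2.02 and 2.03, then 0.932, 0.892 and 0.761. The 24-hour libraries were the lowest, at -1.31 relative to time 0 on the log2 scale (SE 0.20, adjusted p = 5.7e-05), or 2.48-fold lower, and -1.14 relative to 12 hours (SE 0.21, adjusted p = 0.00025). At 12 hours the value was -0.15 (SE 0.16, adjusted p = 0.65). Socs1 was called at 24 hours under each of the 11 other analyses and with each library left out, from -1.53 to -1.13.

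Socs2, which is best known as an inhibitor of growth hormone signaling through STAT5, lies on chromosome 10 (ENSMUSG00000020027.18; 95385362 to 95417180, minus strand). It had 103, 103 and 108 CPM at time 0, 102, 105 and 92.2 CPM at 12 hours and 78.0, 70.9 and 77.5 CPM at 24 hours. The 24-hour libraries lay below all others, at -0.47 relative to time 0 on the log2 scale (SE 0.047, adjusted p = 9.8e-07). This was 1.39-fold lower and, among the 11 other analyses, was called only with total counts (-0.70).

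**Figure D2:**
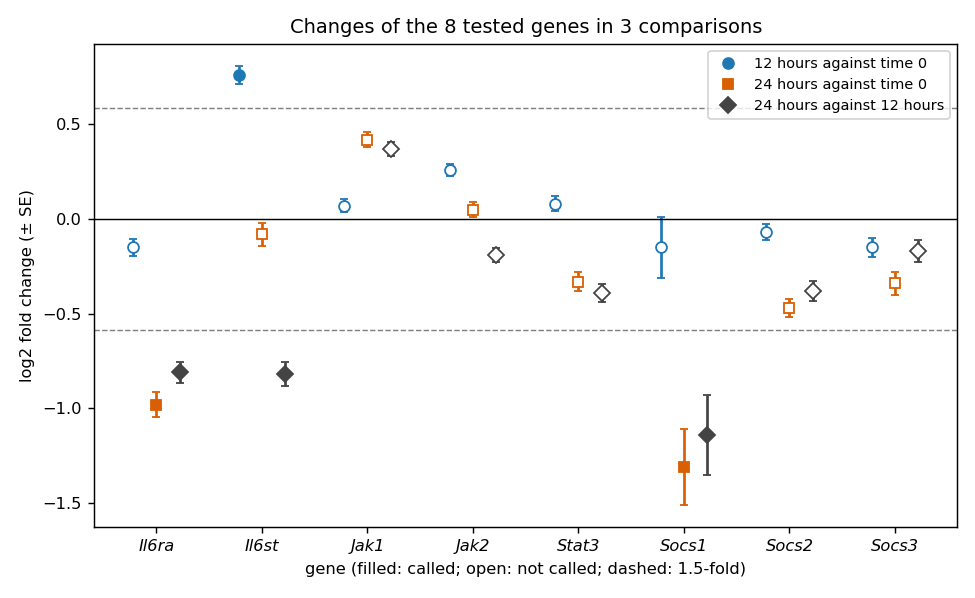
Log2 fold change (vertical axis, ± SE) of the 8 tested genes in the 3 comparisons, with filled symbols for called genes, open symbols for genes not called and dashed lines at 1.5-fold. At 12 hours Il6st alone is filled, at 0.76. At 24 hours Il6ra (-0.98) and Socs1 (-1.31) are filled, and Jak1 is the one gene above 0.4.

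Over the 9 measured genes, 8 had enough counts to be tested. At 12 hours, 1 of the 8 (12.5%) was called, beside 1.6% of all tested genes. That 1 was higher, as were 1.5% of all tested genes, and 0.0964% were lower. With the adjusted p alone, 2 of the 8 were higher, beside 6.85% of all tested genes, and none of the 8 was lower, beside 3.47%, so that 10.3% passed in either direction. The libraries of 12 hours and time 0 did not overlap for 6 of the 8, beside 27.1% of all tested genes. The median log2 fold change of the 8 was 0.00, as for all tested genes. At 24 hours, 2 of the 8 (25.0%) were called, both lower, where 28.8% of all tested genes were called, 12.0% higher and 16.8% lower. The share called was thus close to that of all genes. With the adjusted p alone, 1 of the 8 was higher and 5 were lower, where 34.4% of all tested genes were higher and 36.5% lower, or 70.9% in all. The libraries did not overlap for 6 of the 8, beside 74.0% of all tested genes, and the median log2 fold change was -0.33, beside -0.02. Between 12 and 24 hours, 3 of the 8 (37.5%) were called, all lower, where 25.7% of all tested genes were called, 10.4% higher and 15.3% lower. With the adjusted p alone, 1 was higher and 7 were lower, where 71.3% of all tested genes passed, 35.7% higher and 35.6% lower. The libraries did not overlap for any of the 8, beside 73.8%, and the median was -0.39, beside 0.00. The comparisons with time 0 share the time 0 libraries.

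Levels were compared between genes as TMM-scaled CPM per kb of exon. At time 0 the order was Jak2 (40.0 ± 0.34, SD, n = 3), Jak1 (12.9), Socs2 (10.8 to 11.3 over its libraries), Socs3 (9.63), Il6ra (7.25), Stat3 (5.79), Il6st (5.54) and Socs1 (0.735), beside a median of 5.83 over 11531 genes. Stat3 and Il6st overlapped, and the other neighbors did not. At 12 hours Il6st stood at 9.37 ± 0.68 (SD, n = 3) in the fourth place, overlapping Socs2 above it and Socs3 below it. At 24 hours Il6ra was at 3.67 ± 0.28 (SD, n = 3), below Stat3 at 4.61, and Socs2 and Socs3 overlapped. Jak2 exceeded 90.1% to 91.9% of these genes at the 3 times, whereas Socs1 exceeded 15.6% of them at time 0 and 10.5% at 24 hours. Levels per length depend on the annotated exons, which were taken from GENCODE.

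**Figure D3:**
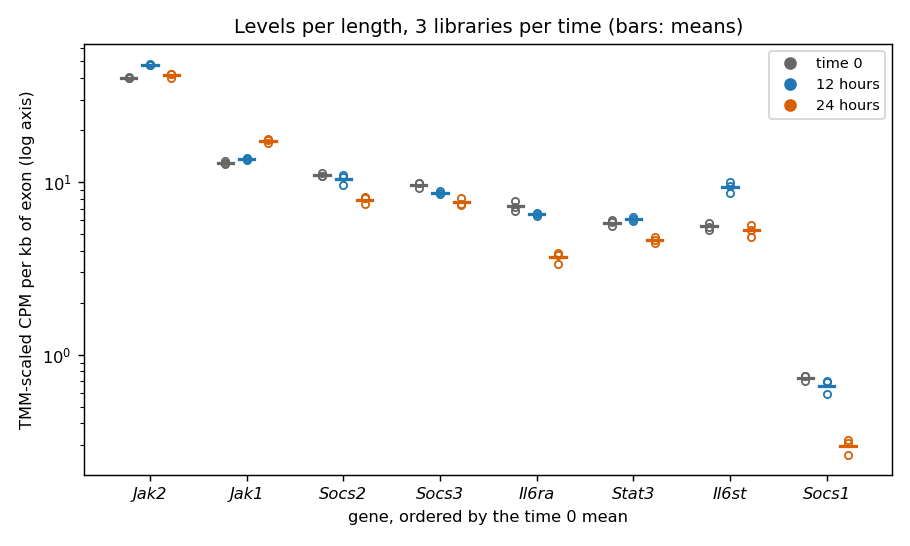
Levels of 8 genes as TMM-scaled CPM per kb of exon (vertical log axis), with 1 open point per library, bars at the means of 3 libraries and colors for the 3 times. Jak2 stays at about 40 or above, Il6st passes Il6ra and Stat3 at 12 hours, and Socs1 is the lowest at each time.

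Of the genes that the table holds for the family's ligands, 5 of 8 were tested. Lif, the leukemia inhibitory factor, which signals through Lifr and gp130, rose early. It had 9.15, 9.90 and 9.69 CPM at time 0, 34.0, 39.8 and 36.6 CPM at 12 hours and 25.3, 35.2 and 26.2 CPM at 24 hours. Both later times lay above time 0, by 3.85-fold at 12 hours (log2 fold change 1.94, SE 0.066, adjusted p = 1.8e-12) and 3.02-fold at 24 hours (1.59, SE 0.11, adjusted p = 3.6e-08). Clcf1, a ligand of the CNTF receptor, rose later, at a log2 value of 0.30 at 12 hours (SE 0.10, adjusted p = 0.088) and 1.33 at 24 hours (SE 0.11, adjusted p = 1.4e-07). Ctf1, cardiotrophin 1, fell at 24 hours, to -0.79 on the log2 scale (SE 0.14, adjusted p = 0.00021). Il6 and Osm had 0 to 2 counts per library, at or below the floor, and Il11 and Cntf were tested and not called. Il11ra1 and Cntfr, the receptors of IL-11 and CNTF, were at 2.04 CPM or less per library and were not called in any comparison by edgeR. Cntfr was at -0.71 on the log2 scale at 24 hours (SE 0.33, adjusted p = 0.068), where DESeq2 and limma-voom called it.

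Of 7 other JAK and STAT genes tested against time 0, none was called at 12 hours by edgeR, DESeq2 or limma-voom, and Stat5a and Stat2 were called at 24 hours, both lower. These 2 of 7 are 28.6%, beside 28.8% of all tested genes at 24 hours, and the 0 of 7 at 12 hours stand beside 1.6%. At 12 hours the unadjusted p was under 0.05 for 4 of the 7, and 3 passed with the adjusted p alone, beside 10.3% of all tested genes. Stat5a, which growth hormone and prolactin receptors activate, had 51.8, 55.3 and 51.3 CPM at time 0, 48.7, 48.7 and 46.6 CPM at 12 hours and 23.5, 23.1 and 22.8 CPM at 24 hours, which was -1.19 from time 0 to 24 hours on the log2 scale (SE 0.053, adjusted p = 6.3e-10). Stat2, a STAT of the interferon response, had -0.74 (SE 0.064, adjusted p = 2.4e-07), and -0.49 after the length and GC correction, short of 1.5-fold. Tyk2, a further JAK of gp130 receptors, was close to the threshold at 12 hours, at 92.3 to 99.1 CPM beside 62.4 to 68.5 CPM at time 0. Its log2 fold change was 0.56 (SE 0.040, adjusted p = 3.8e-08), or 1.48-fold, and it passed 1.5-fold without replicate 2 of time 0 (0.60) or replicate 1 of 12 hours (0.59).

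Of 5 other SOCS genes, none was called in any comparison by edgeR, DESeq2 or limma-voom, beside 1.6% of all tested genes at 12 hours, 28.8% at 24 hours and 25.7% between these times. Relative to time 0, the unadjusted p was under 0.05 for 2 of them at 12 hours and 4 at 24 hours, and 1 and 4 passed with the adjusted p alone, beside 10.3% and 70.9% of all tested genes. Between 12 and 24 hours the unadjusted p was under 0.05 for 4 of the 5, and 3 passed with the adjusted p alone, beside 71.3%. Cish, a target of STAT5, had 31.2, 28.5 and 30.8 CPM at time 0, 43.1, 43.4 and 41.1 CPM at 12 hours and 38.0, 38.6 and 40.3 CPM at 24 hours. The libraries of both later times lay above time 0, at 0.50 (SE 0.048, adjusted p = 1.2e-06) and then 0.37 (SE 0.056, adjusted p = 4.9e-05) on the log2 scale. The 24-hour value was 0.69 and called after the length and GC correction, and 0.15 with total counts. Of 8 PIAS and phosphatase genes, which restrain STATs and JAKs or, for Ptpn11, transmit part of the signal, none was called at 12 hours by edgeR, DESeq2 or limma-voom (beside 1.6% of all tested genes). At 12 hours the unadjusted p was under 0.05 for 3 of the 8, and 2 passed with the adjusted p alone, beside 10.3%. Of the 8, 3 were called at 24 hours (37.5%, beside 28.8% of all tested genes). Pias1, an inhibitor of activated STATs, fell, at -1.42 on the log2 scale (SE 0.051, adjusted p = 1.2e-10), and so did Ptpn1, at -0.81 (SE 0.062, adjusted p = 7.3e-08). Ptpn2, a phosphatase of JAK1 and STAT3, rose by 0.79 (SE 0.049, adjusted p = 1e-08). After the length and GC correction Ptpn1 was at -0.49, and with total counts Ptpn2 was at 0.56, both short of 1.5-fold.

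Of 19 genes that STAT3 is known to induce, 7 were called at 12 hours (36.8%, all higher) and 12 at 24 hours (9 higher and 3 lower), beside 1.6% and 28.8% of all tested genes. Their median log2 fold changes were 0.19 and 0.56. The list was chosen with earlier results of these data known, so its shares are not independent of those results. It leaves out Socs3, the classical STAT3 target, which was at -0.15 at 12 hours and -0.34 at 24 hours. The highest of the called genes at 12 hours were Saa3 (3.88), Lcn2 (2.39) and Bcl3 (2.14), and the lowest were Junb (0.74), Cebpd (1.30) and Irf1 (1.51). At 24 hours the highest were Saa3 (7.27), Lcn2 (4.39) and Fos (3.31), and the lowest were Fgg (-1.65), Myc (-0.98) and Ccnd1 (-0.61). Ccnd1 fell short of 1.5-fold with upper-quartile factors (-0.58), after the length and GC correction (-0.48) and without replicate 1 of 24 hours (-0.56). Saa3, Lcn2, Bcl3 and Irf1, an acute-phase protein, an iron-binding protein, an IkB family protein and an interferon regulator, are also induced by NF-kB, so the list does not measure STAT3 alone. Irf1 had 51.2, 52.7 and 51.0 CPM at time 0, 145, 150 and 146 CPM at 12 hours and 47.7, 55.8 and 56.8 CPM at 24 hours, high at 12 hours and overlapping with time 0 at 24 hours, as for Il6st. Fgg had under 1 CPM in every library, its 24-hour value was -2.56 without replicate 2 of 24 hours and -1.34 without replicate 1, and its call at 24 hours was lost without replicate 1 of time 0 (adjusted p = 0.054) or replicate 3 of 24 hours (adjusted p = 0.06).

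**Figure D4:**
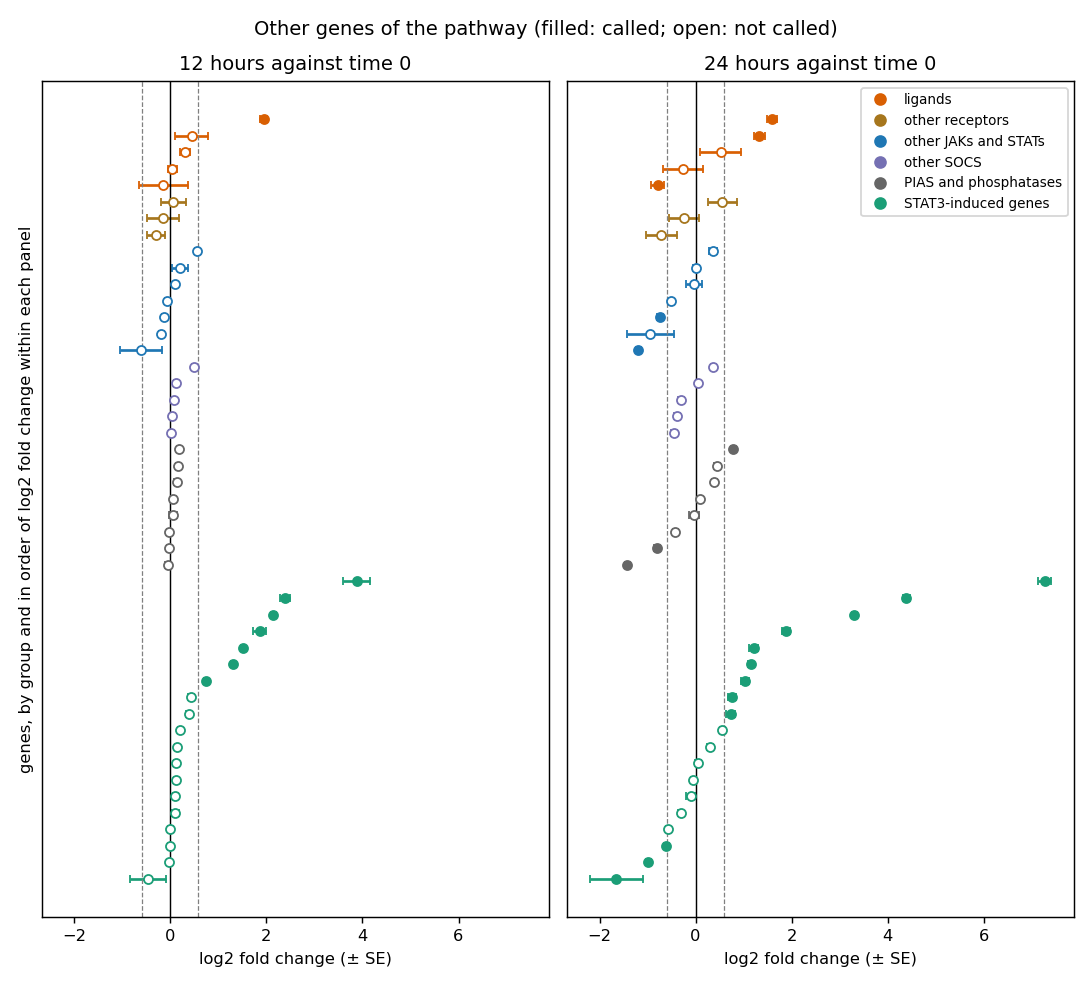
Log2 fold change (horizontal axes, ± SE) of 47 other pathway genes at 12 and at 24 hours relative to time 0, 1 point per gene, colored by group and ordered by value within each group and panel, with filled points for called genes and dashed lines at 1.5-fold. At 12 hours all 8 filled genes lie to the right, from Junb at 0.74 to Saa3 at 3.88, and at 24 hours 12 are higher and 8 lower.

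The genes with a pattern most like that of Il6st were found among 8350 genes with a mean of at least 10 CPM, by the summed absolute difference of the log2 fold changes at 12 and 24 hours. They were Ier5 (0.68 at 12 hours and -0.08 at 24 hours, a summed difference of 0.079), Tmem238l (0.76 and 0.08, a summed difference of 0.16) and Angptl4 (0.65 and 0.03, a summed difference of 0.22). All are from the same 9 libraries, and both fold changes of a gene share the libraries of time 0.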

How the data were processed

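RNA-Seq counts of MyC-CaP cells were used for 9 libraries, 3 each of 0, 12 and 24 hours with 100 ng/mL ASPN. The authors prepared TruSeq mRNA libraries, trimmed the paired-end reads with Cutadapt, aligned them with STAR to GRCm38.p6 (GENCODE M24) and counted reads per gene with featureCounts. The deposited values are raw counts for 15384 protein-coding genes, each with at least 1 count over the 9 libraries. Exon lengths and strands are from GENCODE M21, which held 15374 of these genes (99.9%).

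R 4.3.3 was used, with DESeq2 1.42.0, edgeR 4.0.16 and limma 3.58.1. Each of the 3 comparisons used its own 6 libraries, edgeR's filterByExpr against low counts, TMM factors and the quasi-likelihood test of edgeR, with Benjamini-Hochberg adjustment over all genes tested. The study's thresholds of 0.05 for the adjusted p and 1.5-fold for the change defined called genes. The calculations were tested on simulated data. P-values measure the spread between cultures of 1 line. Errors are the SD (n = 3) or, for log2 fold changes, the SE. The chi-square per degree of freedom between libraries of 1 time was 3.48 to 18.2, above sampling noise.

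The genes and lists were chosen with earlier results of these data known. Named are all the listed receptor, JAK, STAT3 and SOCS genes, the called genes of 6 short pathway lists (for the STAT3-induced list, the 3 highest and 3 lowest called at each time) and the 3 nearest genes of any gene called at 12 hours. Tyk2 and Cish were named after their values were seen. Counts of Lifr, Il27 and Il27ra were not analysed here. Alternatives were DESeq2's Wald test, RLE, upper-quartile and total-count scaling, no filter, a minimum of 10 counts per library, one model over all 9 libraries, a block for the replicate number, limma-voom, the adjusted p alone, offsets for transcript length and GC content (loess, span 0.3) without and with the block, and each library left out in turn.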

Additional observations from a re-analysis of the deposited data

Results flagged for a closer look

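Between 12 and 24 hours the change from time 0 differed, by edgeR's quasi-likelihood test on the libraries of these 2 times alone, for 3 of the 8 tested receptor, JAK, STAT3 and SOCS genes (37.5%, beside 25.7% of all tested genes). The log2 fold change from 12 to 24 hours was -0.82 for Il6st, -0.81 for Il6ra and -1.14 for Socs1. After the length and GC correction, Il6st was at -0.58 and Il6ra at -0.45, both short of 1.5-fold, and only Socs1 stayed called, at -0.98. Il6st was called higher at 12 hours and not at 24 hours relative to time 0, whereas Il6ra and Socs1 were called lower at 24 hours and not at 12 hours.

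Among the other pathway genes named, the 24-hour level was lower than the 12-hour level for Ctf1 (-0.80), Stat5a (-1.03), Pias1 (-1.34), Ptpn1 (-0.76), Bcl3 (-1.09), Myc (-1.15), Ccnd1 (-0.70) and Irf1 (-1.44). It was higher for Clcf1 (1.06), Ptpn2 (0.65), Fos (2.95), Lcn2 (2.02) and Saa3 (3.41). After the length and GC correction Ptpn1 (-0.44), Ccnd1 (-0.56) and Ptpn2 (0.46) were short of 1.5-fold, as was Ptpn2 with total counts (0.43). Bcl3 was called higher at both times relative to time 0, and Irf1 at 12 hours alone.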

How the results depend on the processing

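For the 8 tested receptor, JAK, STAT3 and SOCS genes, 250 of 264 alternative log2 fold changes, and all 144 with a library left out, kept their direction and their call, which joins the adjusted p and the fold. The adjusted p alone crossed 0.05 for some values below 1.5-fold: for Il6ra at 12 hours it was 0.0048 to 0.14 over the alternatives and 0.015 to 0.20 with a library left out, and for Il6st at 24 hours relative to time 0 it was 0.00072 to 0.48 and 0.041 to 0.78. The numbers of these genes called with a library left out were 1 at 12 hours, 2 at 24 hours and 3 between 12 and 24 hours, as in the full analysis. With the adjusted p alone the numbers were 2, 6 and 8. Between 12 and 24 hours, 5 were called with total counts and 1 with the length and GC correction, both without and with the replicate block. Of the other pathway genes, 8, 20 and 14 were called in the 3 comparisons, 19, 33 and 31 with the adjusted p alone, and 8 to 9, 19 to 21 and 14 to 16 with a library left out. Of all tested genes, 182, 3298 and 2924 were called, 1178, 8119 and 8124 with the adjusted p alone, and 148 to 198, 3248 to 3312 and 2871 to 3003 with a library left out. Total counts gave 698 higher and 3008 lower genes at 24 hours relative to time 0, beside 1374 and 1924 with TMM factors, and 484 higher and 2830 lower from 12 to 24 hours, beside 1184 and 1740.

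The sign changed for Il6st at 24 hours relative to time 0 after the length and GC correction (0.15 without and with the block) and for Stat3 (0.08 without and 0.09 with the block, and 0.03 in both relative to 12 hours). It changed with total counts for Jak2 (-0.17) and Irf1 (-0.17) at 24 hours relative to time 0. From 12 to 24 hours it changed after the length and GC correction, without and with the block, for Tyk2 (0.24), Cish (0.21) and Cebpd (0.03). With single libraries left out it changed for Ctf1 at 12 hours (-0.03 to 0.09). The cause was not tested.

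The replicate number as a block left Il6st at 0.76 at 12 hours, Il6ra at -0.98 and Socs1 at -1.31 at 24 hours, and called the same numbers (1, 2 and 3) of these genes. Deviations of same-numbered libraries had correlations of -0.106 to 0.057 over all genes, so the numbers were not taken to pair the libraries. The floor of 3 counts limits Osmr, Il6 and Osm, for which no change could be measured.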
